A study of Mus musculus with 26 samples.

Results

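Loss of Spred1 in blood-forming cells was examined as 1 common effect over 2 mouse experiments, with 11 knockout and 10 wild-type RNA-seq libraries, 21 of the 26 libraries in the series. The members were chosen by title alone: 6 libraries of the global Spred1 knockout (global KO) and 5 of the HSC-Spred1 knockout (HSC KO), against 5 of Spred1 wt and 5 of HSC wt. The 5 libraries of the endothelial knockout (EC KO) stayed outside. Each knockout was set against the wild-type group of its own experiment. The experiment was a block in the fit, which takes up a difference in level between the experiments. A knockout effect present in 1 experiment alone can still enter the common effect.

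All 21 libraries came from LSK cells (Lin-Sca-1+c-Kit+), the bone marrow fraction that contains stem cells and early progenitors, called leukemic stem cells in the labels. Every mouse carried SCLtTA/BCR-ABL, a tetracycline-controlled transgene pair that drives the BCR-ABL oncoprotein in stem and progenitor cells and gives a disease like chronic myeloid leukaemia, on a C57BL/6 background. The HSC KO mice had Spred1 deleted by Mx1-cre, and both HSC groups received 7 intraperitoneal doses of 250 µg poly(I:C), 1 every 2 days. Poly(I:C) mimics viral RNA and raises interferon, which switches on the Mx1 promoter. That promoter is also active outside blood cells, and recombination need not reach every cell. The global KO lacks Spred1 in all tissues, so it is not a blood-restricted loss, and the labels give no poly(I:C) for it or for Spred1 wt. Ages, and whether wild-type mice were littermates, are not given in the sources used here. Each library was read as 1 mouse, and p-values measure the spread between libraries.

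As background, SPRED1 sits at the cell membrane and brings neurofibromin, the NF1 protein, to RAS. Neurofibromin makes RAS hydrolyse its GTP, which turns off the RAF, MEK and ERK kinases downstream. BCR-ABL feeds into RAS through GRB2 and SOS, and ERK activity is commonly read from a small set of transcripts that includes the ETV transcription factors, the Sprouty and DUSP feedback inhibitors and cyclin D1.

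The libraries held 14816071 to 26714325 counted reads. Kit lay at 678 to 1243 CPM (reads scaled to a common library size) and Ly6a, the gene of Sca-1, at 40.6 to 84.5 CPM over all 4 groups, with the groups overlapping for both genes. Of the 10 fixed markers of LSK cells and progenitors, 10 were tested and 0 were called in the common effect, where 0.0378% of all genes were. In the global experiment 7 of them were higher (median log2 difference 0.05), and in the HSC experiment 8 were lower (median -0.13). Both global-experiment groups held libraries with Y-linked transcripts only, while HSC KO had 3 female and 2 male libraries and HSC wt 2 female and 3 male.

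Of 13238 genes tested, 5 were called for the common effect (edgeR quasi-likelihood F-test, Benjamini-Hochberg adjusted p under 0.05), which is 0.0378% of them. Spred1 and the small nucleolar RNA gene DQ267101 were lower in the knockouts, and the cyclin gene Ccnd1, the microRNA gene Mir674 and the noncoding transcript BC018473 were higher. The first 4 of these (all but BC018473) were also the genes, 0.0302% of those tested, for which knockout and wild-type libraries did not overlap in either experiment. BC018473 had more than 1 read in no library outside global KO.

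Spred1 itself, on chromosome 2 from 117121071 to 117182277 on the plus strand (mm10), checked the labels. Its level was 22.3 to 44.7 CPM (median 32.8) in the 6 global KO libraries, and 93.4, 107, 149, 110 and 116 CPM in the Spred1 wt libraries. In HSC KO it was 28.9, 47.2, 36.5, 32.6 and 31.1 CPM, against 97.4, 110, 106, 106 and 99.7 CPM in HSC wt. No knockout library reached the lowest wild-type library, and none was near 0: the remaining level was 19.4% to 38.8% of the control mean in global KO and 27.8% to 45.4% in HSC KO. The common log2 difference was -1.70 (SE 0.107, edgeR adjusted p = 3.62e-09), made up of -1.82 in the global and -1.56 in the HSC experiment. Which exons the deletions remove is not given in the sources used here, and reads over the other exons do not check the deletion.

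Ccnd1 encodes cyclin D1, the partner of CDK4 and CDK6 that carries mitogen signals into the G1 phase. It lay at 63.9 to 109 CPM (median 83.1) in global KO, while Spred1 wt had 52.6, 55.2, 44.4, 30.1 and 37.9 CPM. HSC KO had 71.7, 77.4, 85.6, 76.5 and 67.3 CPM and HSC wt 47.0, 54.8, 49.7, 36 and 52.2 CPM. Every knockout library was above every wild-type library of both experiments. The common log2 difference was 0.83 (SE 0.114, edgeR adjusted p = 0.000837), a 1.78-fold rise, with 0.99 in the global and 0.66 in the HSC experiment. The difference between these effects was 0.33 (unadjusted p = 0.143). The call for Ccnd1 held with each of the 21 libraries left out in turn, at a log2 difference of 0.77 to 0.87, and under 13 of 13 other settings.

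**Figure D1:**
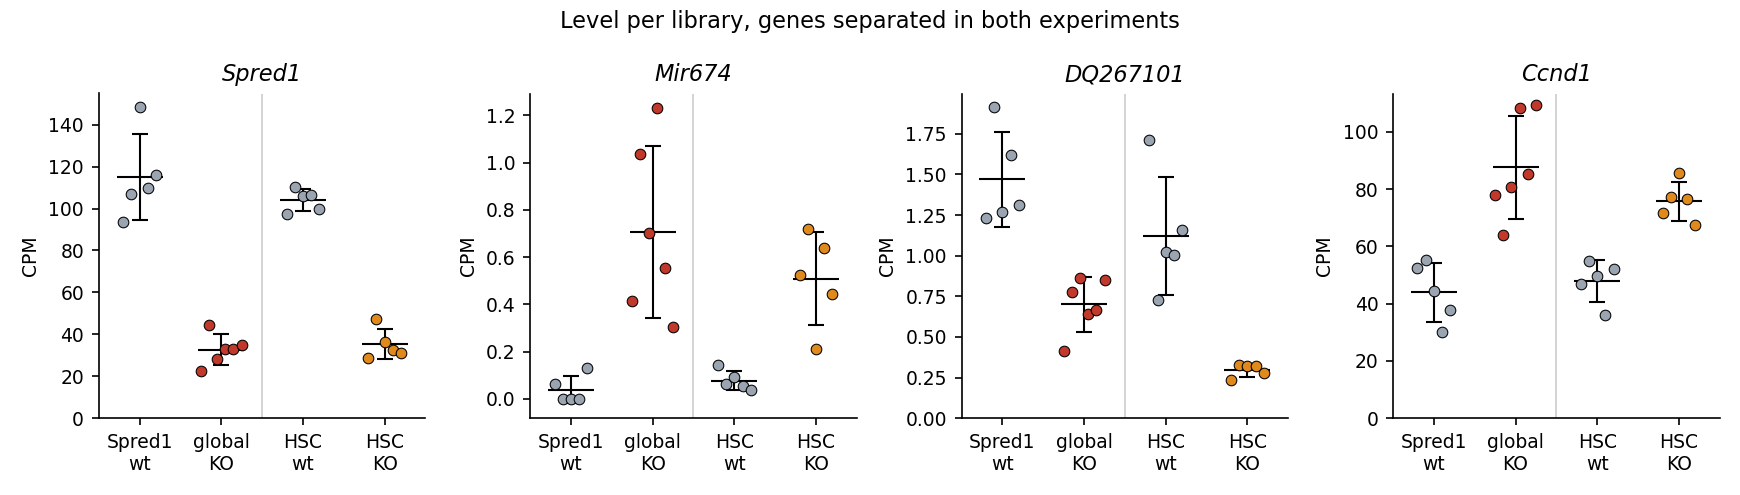
Level (CPM, linear axis) of the 4 genes whose knockout and wild-type libraries were separated in both experiments, with 1 point per library and the mean ± SD as a bar. The grey line divides the global experiment (left, 6 and 5 libraries) from the HSC experiment (right, 5 and 5 libraries), and Ccnd1 runs from 63.9 to 109 CPM in global KO above 30.1 to 55.2 CPM in Spred1 wt.

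Mir674 lies on chromosome 2 from 117185127 to 117185226, on the same strand as Spred1 and 2850 bases past the end of the Spred1 row. Its sequences are shown because this short gene beside Spred1 is 1 of the 4 separated genes. The first line is the hairpin with both mature arms in capitals, and the other lines are the arms with the seed (bases 2 to 8 from the 5′ end) in capitals, from RefSeq on GRCm38.p6, 5′ to 3′.
Mir674 hairpin: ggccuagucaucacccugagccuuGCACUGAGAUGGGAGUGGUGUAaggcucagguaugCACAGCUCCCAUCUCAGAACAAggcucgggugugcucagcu
mmu-miR-674-5p: gCACUGAGaugggaguggugua
mmu-miR-674-3p: cACAGCUCccaucucagaacaa
Among 1738 mature mouse miRNAs in that table, 2 others share the seed of the 5p arm and 0 share that of the 3p arm. The value given for Mir674 counts reads over these 100 bases in an RNA-seq library, and it cannot separate a mature miRNA from a longer transcript that runs over the same bases.

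The counts were low but separated. Global KO libraries had 5 to 25 reads each, or 0.303 to 1.23 CPM, and the Spred1 wt libraries had 0.0648, 0, 0, 0 and 0.131 CPM, 3 reads in all against 77. HSC KO had 0.526, 0.721, 0.212, 0.638 and 0.443 CPM and HSC wt 0.142, 0.0606, 0.0929, 0.0527 and 0.0373 CPM. The lowest knockout library was above the highest wild-type library in both experiments. Pooled over libraries, Mir674 was 20.2-fold higher in global KO (exact 95% counting interval 6.65 to 99.97) and 6.48-fold higher in HSC KO (3.004 to 15.97). These intervals cover counting error only. The common log2 difference was 3.23 (SE 0.435, edgeR adjusted p = 0.000837). The call was lost when only the 16 libraries with Y transcripts were used (3.23, edgeR adjusted p = 0.0928), and without global KO 4 the gene no longer passed the filter on low counts.

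Around Spred1, 247 other tested genes lay within 20 Mb. Mir674 was the 1 called, and 13 were higher and 16 lower at an unadjusted p under 0.05, or 11.7% of them, where the share over all genes tested was 5.96%. This share need not be common to both experiments. Sqrdl and Spg11 stood at -1.02 and -0.63 in the global experiment, and at -0.14 and -0.04 in the HSC experiment. Cd59a (-0.44 and -0.29) and Bub1b (0.13 and 0.12) were closer in the 2 experiments. None of these neighbours was called for the difference between experiments. Among these neighbours, Kcnip3 (a calcium-binding potassium channel regulator) and Meis2 (a homeobox transcription factor) differed in the global experiment. Kcnip3 was 0.648 to 1.45 CPM in global KO and 1.43, 13.7, 8.34, 15.04 and 12.5 CPM in Spred1 wt, but 0.459 to 0.795 CPM in HSC KO and 0.546 to 1.32 CPM in HSC wt. Its level in 4 of 5 Spred1 wt libraries thus stood apart from all other groups, and the common log2 difference of -2.02 did not pass (edgeR adjusted p = 0.183), though it did in DESeq2 (adjusted p = 0.00817) and in edgeR with the experiments weighted equally (adjusted p = 0.0160) or all 26 libraries (adjusted p = 0.00835). Meis2 had the same form, at 1.005, 3.92, 3.4998 and 3.54 CPM in 4 Spred1 wt libraries and 0.0465 to 0.633 CPM in the other libraries, Spred1 wt 1 included. Its common difference was -2.33 (edgeR adjusted p = 0.363).

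DQ267101 is a C/D-box small nucleolar RNA gene within the imprinted Dlk1-Dio3 region of chromosome 12, from which long noncoding RNAs, small nucleolar RNAs and microRNAs are made on the maternal chromosome. Its sequence is shown because the gene fell in the common effect and its box motifs are those of its class. GENCODE M21 gives it 73 bases on the plus strand of GRCm38, chr12:109651424-109651496, with the C box (TGATGA) and the D box (CTGA) in capitals.
DQ267101: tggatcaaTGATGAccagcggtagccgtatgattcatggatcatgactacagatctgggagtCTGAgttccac
Both motifs, in this order and on the transcribed strand only, occur in 24.02% of the 1507 small nucleolar RNA transcripts of that annotation. The deposited row of this name is wider, from 109649617 to 109651495. It spans 2 annotated small nucleolar RNA genes, DQ267100 and DQ267101, and all of its 1879 bases lie in exons of Rian, a long noncoding RNA of the same strand. Reads of Rian and of this row can therefore not be told apart with certainty.

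DQ267101 was at 0.413 to 0.863 CPM (8 to 16 reads) in global KO, while Spred1 wt had 1.23, 1.91, 1.27, 1.62 and 1.31 CPM. HSC KO had 0.234, 0.328, 0.318, 0.319 and 0.277 CPM, from 4 to 6 reads, and HSC wt 1.71, 0.728, 1.02, 1.001 and 1.16 CPM. All knockout libraries were below all wild-type libraries of their experiment. Its common log2 difference was -1.43 (SE 0.197, edgeR adjusted p = 0.000837), with -1.07 in the global and -1.91 in the HSC experiment. The call was lost without the experiment block (edgeR adjusted p = 0.0617) and with the 16 libraries with Y transcripts alone (edgeR adjusted p = 0.139).

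The other tested transcripts of the region pointed the same way without passing. Meg3, a maternally expressed long noncoding RNA, was 8.67 to 19.9 CPM in global KO and 20.6, 26.2, 7.68, 35.4 and 32.3 CPM in Spred1 wt, and the groups overlapped through Spred1 wt 3. In HSC KO it was 2.63, 6.55, 3.71, 8.94 and 6.86 CPM, below the 11.5 to 21.9 CPM of HSC wt. Its common log2 difference was -1.13 (edgeR adjusted p = 0.183), and it passed without that library (-1.26, edgeR adjusted p = 0.00929), and in DESeq2 (adjusted p = 0.00432). Rian stood at -1.02 (edgeR adjusted p = 0.238), and DESeq2 called it (-1.03, adjusted p = 0.0260). Dlk1, the paternally expressed ligand gene of the region, stood at -0.48 (edgeR adjusted p = 0.878) with overlapping groups. Of the 4 tested transcripts of the region, the called DQ267101 included, 4 were lower, 3 of them at an unadjusted p under 0.05, where 3.38% of all genes were. The DQ267101 row lies within Rian exons, so the members are not independent and this count is no separate support.

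BC018473, annotated as an antisense noncoding gene on chromosome 11, had the largest fitted difference, and it came from 5 libraries. It was at 96.7, 86.7, 87.2, 104 and 70.3 CPM in global KO 1, 3, 4, 5 and 6 and at 0 in global KO 2. Spred1 wt and HSC KO had 0 reads in every library, and HSC wt had 0 or 1 read. Against a floor of 3 reads over the Spred1 wt group, global KO was at least 2171-fold higher. St6galnac2, a sialyltransferase gene that lies 57.5 kb from it, showed the same libraries high: 8.68, 12.5, 12.2, 13.04 and 7.21 CPM, with 0 in global KO 2 and at most 0.166 CPM in any library of the other groups. The common effect of BC018473 passed (edgeR adjusted p = 0.000796) and that of St6galnac2 did not (edgeR adjusted p = 0.115), except in DESeq2 (adjusted p = 0.0413), without global KO 2 (edgeR adjusted p = 0.00184) and without HSC wt 5 (edgeR adjusted p = 0.0408). The test of the global experiment alone gave BC018473 an edgeR adjusted p of 0.0701 and St6galnac2 one of 0.000604. The BC018473 call was lost in DESeq2 (adjusted p = 0.168), in limma voom, in the fit with the experiments weighted equally, in the fit of all 26 libraries and without the block. When any of the 5 expressing libraries was left out, the gene no longer passed the filter. The HSC experiment held 3 reads of BC018473 in all, each in HSC wt.

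**Figure D2:**
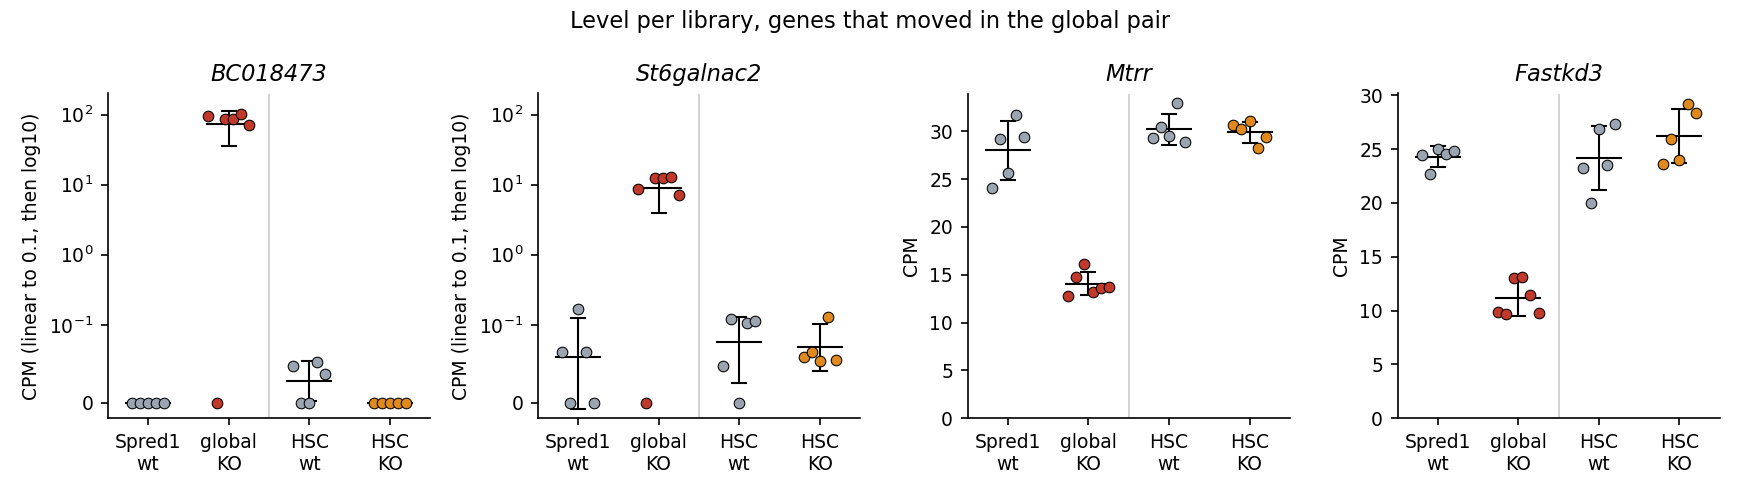
Level (CPM) of BC018473, St6galnac2, Mtrr and Fastkd3 in each library, with the mean ± SD as a bar; the first pair of panels has an axis that is linear up to 0.1 and log10 above, and the other panels are linear. In global KO, 5 of 6 libraries had 70.3 to 104 CPM of BC018473 and 1 had 0, and for Mtrr and Fastkd3 the 6 global KO libraries lay below all others.

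The difference between the experiments was tested directly, and 2 genes were called, 0.0151% of those tested. Mtrr encodes methionine synthase reductase, which keeps the B12-dependent methionine synthase active, and Fastkd3 encodes a mitochondrial RNA-binding protein. They lie head to head on chromosome 13, 79 bases apart. Mtrr was 12.8 to 16.1 CPM in global KO and 24.1, 29.2, 25.6, 31.7 and 29.4 CPM in Spred1 wt, but 28.3 to 31.1 CPM in HSC KO and 28.8 to 32.9 CPM in HSC wt. Fastkd3 was 9.66 to 13.1 CPM in global KO and 22.7 to 25.02 CPM in Spred1 wt, but 23.6 to 29.2 CPM in HSC KO and 20.01 to 27.3 CPM in HSC wt. Both were thus lower in global KO without overlap, and overlapped in the HSC experiment. The effect was lower in the global than in the HSC experiment by -0.98 for Mtrr (edgeR adjusted p = 0.000104) and by -1.24 for Fastkd3 (edgeR adjusted p = 0.000119). Pooling gave both a common log2 difference of -0.52, which did not pass (edgeR adjusted p = 0.183 and 0.484). With the experiments weighted equally both passed, at -0.50 each (edgeR adjusted p = 3.24e-05 and 0.00104), as they did in the fit of all 26 libraries (edgeR adjusted p = 2.1e-06 and 0.00127). DESeq2 called the common effect of Mtrr (adjusted p = 0.0195).

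At an unadjusted p under 0.05, 342 genes were higher (2.58%) and 447 lower (3.38%) in the common effect, 5.96% together. Over all genes tested, 52.6% of the differences were above 0 and 47.4% below. In the effects of each experiment, both estimated in 1 fit of 4 group means with shared dispersions, 39 genes reached an unadjusted p under 0.05 in both with the same sign (0.295%), 12 higher and 27 lower, and 7 with opposite signs (0.0529%). The experiments share no library. Across the 13238 genes their effects had Pearson's r of 0.154 and Spearman's rho of 0.177, a description of genes that are not independent. Of 695 genes at p under 0.05 in the global experiment, 475 (68.3%) had the same sign in the HSC experiment, where 56.8% of all genes did. The count of 39 was 66 without HSC KO 1, 60 without HSC KO 2 and 152 in limma voom. The count of 7 was 2 without HSC wt 1, 3 without HSC wt 3 or Spred1 wt 4, 4 without HSC wt 2, 12 without HSC KO 1, without HSC wt 4 or with no filter, and 14 in limma voom.

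**Figure D3:**
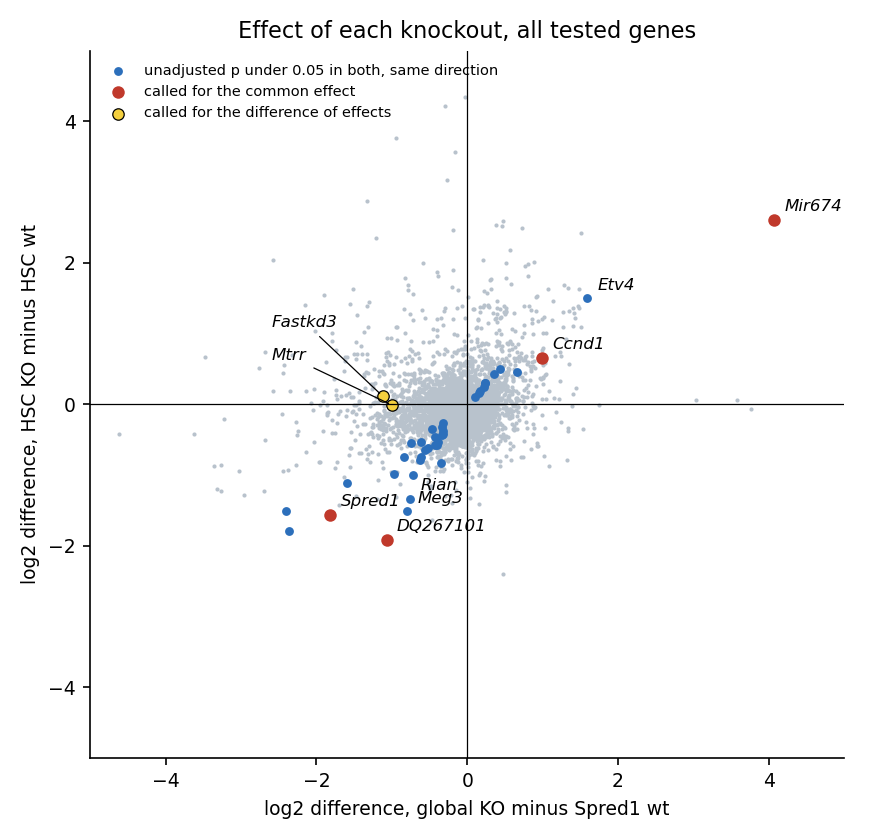
Log2 difference of each tested gene in the HSC experiment (y axis) against the global experiment (x axis). Red points are 4 genes called for the common effect, blue points the other genes at an unadjusted p under 0.05 in both with 1 direction, and yellow points Mtrr and Fastkd3, called for the difference; BC018473 and St6galnac2 lie beyond 5 on the x axis and are not drawn.

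Genes next in order of p did not pass in edgeR. For several genes named in this report the groups did not overlap in the HSC experiment alone. The share of all genes apart in 1 experiment alone is not given here, so such separation is only a description. Itgal, the alpha chain of the integrin LFA-1 and an adhesion receptor of leukocyte homing, had 211 to 256 CPM in HSC KO, above the 182 to 203 CPM of HSC wt in 5 of 5 libraries. In the global experiment the groups overlapped, at 197 to 268 CPM in global KO and 166 to 231 CPM in Spred1 wt. Its common log2 difference was 0.26 (SE 0.0595), at an edgeR adjusted p of 0.183. DESeq2 and limma voom called it (adjusted p = 0.0205 and 0.0478), and edgeR called it without Spred1 wt 2 (adjusted p = 0.0344). Of the 22 integrins and homing receptors tested 10 were higher and 12 lower, 2 and 1 of them at an unadjusted p under 0.05 (2.58% and 3.38% of all genes), and the list's median was -0.02. Other genes of small p in this direction were Btnl9 (0.39), Angptl2 (0.56), Dnaaf2 (0.17) and Etv4 (1.54), with edgeR adjusted p between 0.190 and 0.407. DESeq2 called Btnl9 (adjusted p = 0.0318) and Angptl2 (adjusted p = 0.0370).

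In the lower direction, Kcnk5, a potassium leak channel, was 25.2 to 38.2 CPM in HSC KO, below the 39.0 to 52.7 CPM of HSC wt, and 30.1 to 40.8 CPM in global KO against 40.1 to 66.4 CPM in Spred1 wt, where 4 of 6 libraries were below all controls. Arhgef28, a guanine nucleotide exchange factor, was 7.99 to 12.3 CPM in HSC KO and 14.9 to 23.8 CPM in HSC wt, and 4 of 6 global KO libraries were below all controls. G0s2, an inhibitor of the lipase ATGL, was 0.350 to 0.848 CPM in HSC KO and 1.04 to 2.06 CPM in HSC wt, and overlapped in the global experiment. Their common log2 differences were -0.45, -0.57 and -1.37, each at an edgeR adjusted p of 0.183. Inppl1, the inositol phosphatase SHIP2, stood at -0.37 and the RAS-related GTPase gene Rras2 at -0.37, at the same adjusted p. DESeq2 called these 5 (adjusted p of 0.0155 to 0.0260), and edgeR called G0s2 without Spred1 wt 2 (adjusted p = 0.0413). Arhgef28 was also called in limma voom (-0.64, adjusted p = 0.00467) and in edgeR with a mast cell covariate (-0.69, adjusted p = 0.0176).

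**Figure D4:**
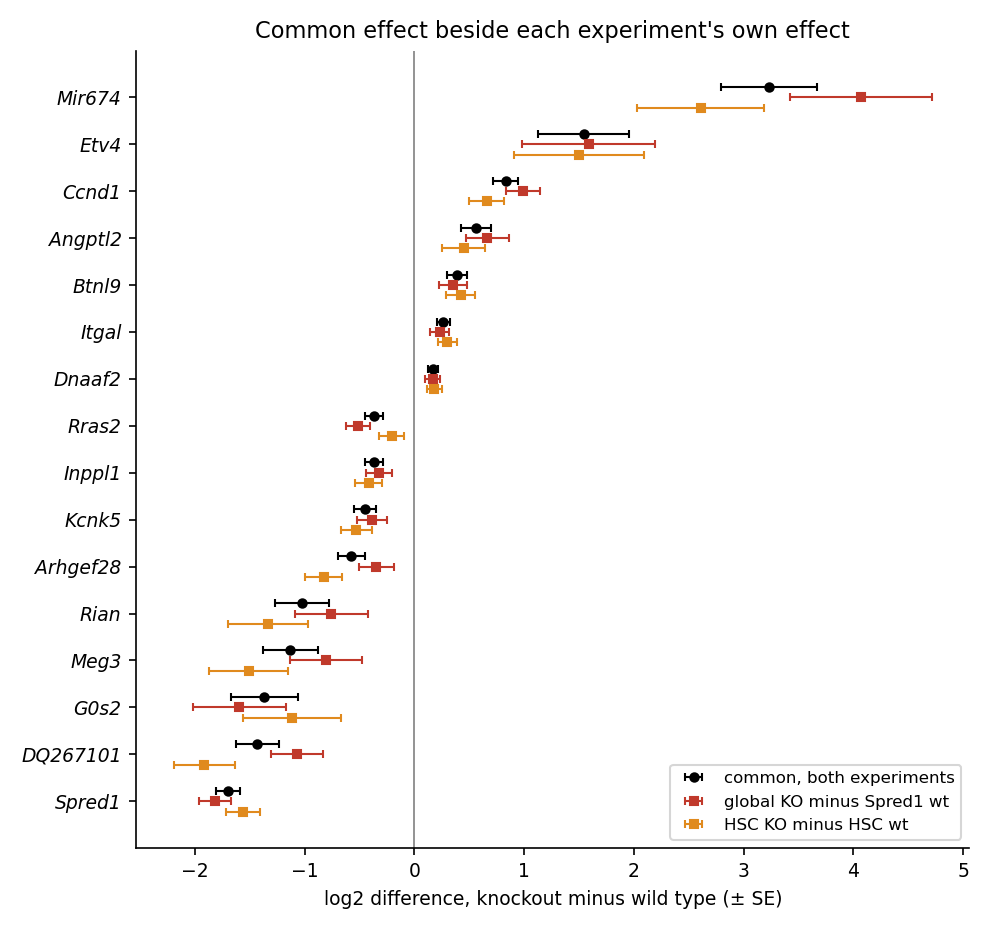
Log2 difference, knockout minus wild type, with its SE, for 16 named genes: the common effect (black), the global experiment (red) and the HSC experiment (orange). Spred1, DQ267101, Mir674 and Ccnd1 passed the test of the common effect. Both experiments lie on the same side of 0 for the genes drawn, which is no test, because most were named for a small p of the common effect. Named genes whose directions differed are not drawn, among them BC018473 (13.4 in the global and -2.37 in the HSC experiment), St6galnac2, Fastkd3, Spred3 and Nf1.

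The genes read as ERK output were taken from a list of 17, of which 16 were tested. In the common effect 15 were higher and 1 lower, 1 was called (Ccnd1), and 8 were higher and 0 lower at an unadjusted p under 0.05, where 2.58% of all genes were higher. The median log2 difference was 0.17, with 0.27 in the global and 0.21 in the HSC experiment, and 0.00497 over all genes tested. The members' summed level was 721 to 908 CPM in global KO and 652 to 777 CPM in Spred1 wt, and 756 to 884 CPM in HSC KO and 711 to 795 CPM in HSC wt, so that the sums overlapped. The knockout libraries did not shift as 1 group. By the list's mean log2 CPM, 4 of 6 global KO libraries were above all controls and 2 were below all controls. In HSC KO 2 of 5 were above all controls and 0 below. With 1 library left out, 12 to 15 members were higher.

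Etv4, an ETS transcription factor that ERK signalling induces, had the largest difference of the list. It was 0.982, 2.33, 0.216, 2.36, 2.49 and 1.27 CPM in global KO and 0.130, 0.335, 0.884, 0.907 and 0.394 CPM in Spred1 wt, with 5 of 6 knockout libraries above all controls. In HSC KO it was 0.409, 3.67, 1.11, 3.83 and 2.6005 CPM, with 3 of 5 libraries above the 0.373 to 1.53 CPM of HSC wt. The common log2 difference of 1.54 (SE 0.414) did not pass (edgeR adjusted p = 0.407), though it did with the mast cell covariate (2.01, edgeR adjusted p = 0.0169). Etv5, its close relative, was 30.3 to 47.2 CPM in global KO and 21.8 to 39.4 CPM in Spred1 wt, and stood at 0.40 (edgeR adjusted p = 0.464).

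Of the Spred and Sprouty inhibitors, Spry4 stood at 0.67 and Spry2 at 0.19 (edgeR adjusted p = 0.529 and 0.878). Spred2, the relative of Spred1 with the same membrane domain, was 37.9 to 50.1 CPM in global KO and 35.5 to 45.4 CPM in Spred1 wt, and 46.3 to 55.0 CPM in HSC KO and 42.2 to 49.7 CPM in HSC wt. Its common log2 difference was 0.15 (SE 0.0533, edgeR adjusted p = 0.639). Spred3 stood at -0.03 (SE 0.123), with a sign that turned in 5 of the alternative settings. Nf1, the partner through which SPRED1 acts on RAS, was 53.6 to 73.5 CPM in global KO and 51.0 to 64.9 CPM in Spred1 wt, and 61.0 to 68.9 CPM in HSC KO and 60.9 to 71.1 CPM in HSC wt, a common difference of 0.04 (SE 0.0567, edgeR adjusted p = 0.943). The group means of Spred3 and Nf1 were higher than the controls in global KO and lower than the controls in HSC KO.

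Among 10 RAS GTPase activating proteins, 7 were higher and 3 lower, 0 were called, and Rasal1 (0.66, edgeR adjusted p = 0.639) was the 1 at an unadjusted p under 0.05. Of 27 components from RAS to ERK, 14 were higher and 13 lower with a median of 0.02, and 1 was higher and 2 lower at that level: Rasgrp2 (0.14), a RAP and RAS exchange factor, and the small GTPases Rras2 and Mras (-0.33). Mras was 3.34 to 5.67 CPM in all 5 HSC KO libraries, below the 5.76 to 6.64 CPM of HSC wt, while in the global experiment the groups overlapped, and limma voom called it (-0.52, adjusted p = 0.0453).

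**Figure D5:**
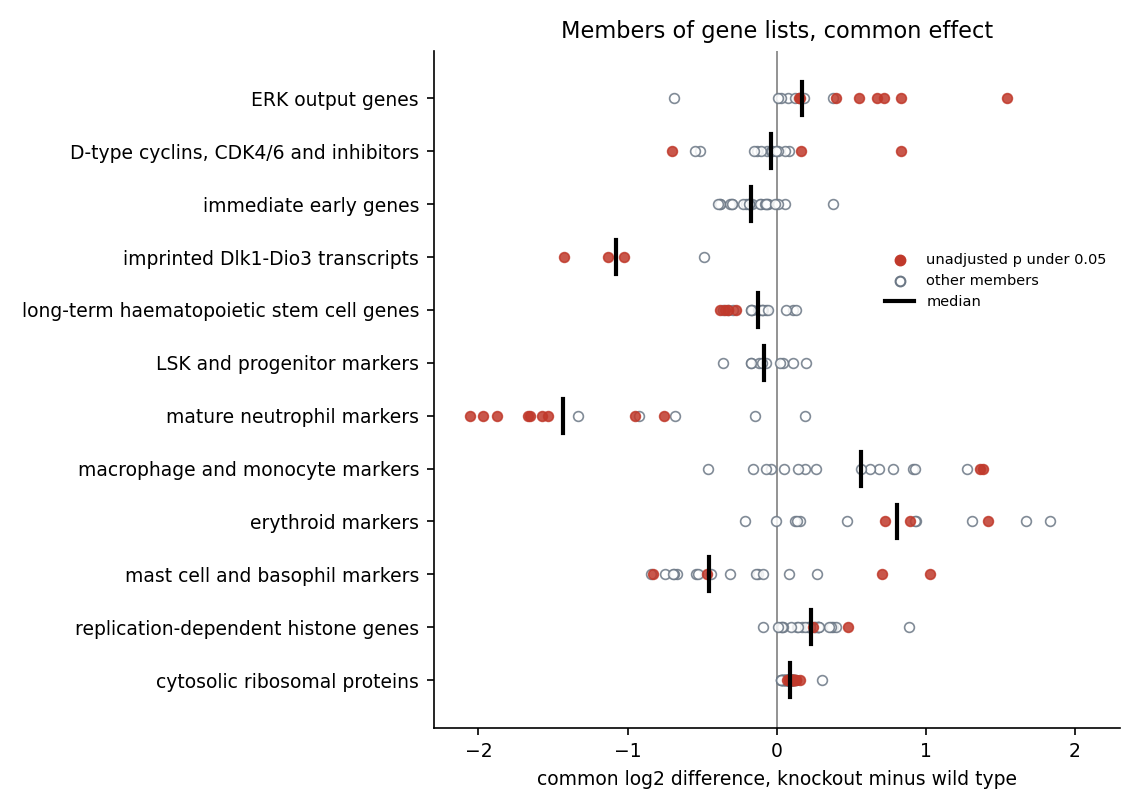
Common log2 difference (x axis) of every tested member of 12 gene lists, with 1 circle per gene, filled where the unadjusted p was under 0.05, and a bar at the list's median. The ERK output genes lie mostly above 0 with a median of 0.17, the mature neutrophil markers mostly below with a median of -1.43.

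The immediate early genes, which stimulated and handled cells switch on within minutes, did not share the direction of the ERK output list. Of 22 tested, 3 were higher and 19 lower in the common effect, 0 at an unadjusted p under 0.05 in either direction. Their median was -0.17, made up of 0.05 in the global and -0.36 in the HSC experiment. Fos ran from 341 to 1039 CPM in global KO and 501 to 1375 CPM in Spred1 wt, and Fosb from 230 to 1637 CPM and 398 to 1959 CPM. In the HSC experiment Fos ran from 380 to 1005 CPM in HSC KO and 585 to 1441 CPM in HSC wt, and Fosb from 419 to 1284 CPM and 696 to 1949 CPM. For both genes 3 of 5 HSC KO and 1 of 6 global KO libraries were below all controls. The groups overlapped for both genes in both experiments.

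Of the 15 D-type cyclins, their kinases and inhibitors, 5 were higher and 10 lower. Ccnd2, cyclin D2, was 374 to 472 CPM in HSC KO, above the 326 to 365 CPM of HSC wt, and overlapped in the global experiment (common 0.16, edgeR adjusted p = 0.529). Cdkn1c, the CDK inhibitor p57, was 1.33 to 2.23 CPM in HSC KO and 1.83 to 4.89 CPM in HSC wt, and 1.44 to 4.30 CPM in global KO and 3.05 to 6.55 CPM in Spred1 wt, with 4 knockout libraries below all controls in each experiment (common -0.70, edgeR adjusted p = 0.529). S phase genes were higher in 15 of 16 with a median of 0.06, and Mcm6, a subunit of the replicative helicase, stood at 0.11 (edgeR adjusted p = 0.737). Replication-dependent histone genes were higher in 26 of 27 with a median of 0.23 and Hist1h4i at 0.25 (edgeR adjusted p = 0.716). Histone genes lie in near-identical copies, so single members are uncertain.

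Cytosolic ribosomal protein genes were higher in 81 of 81, by a median of 0.09, with 13 at an unadjusted p under 0.05 and 0 called, where 52.6% of all genes were higher and 2.58% higher at that p. Rps20 stood at 0.16 and Rpl37 at 0.12 (edgeR adjusted p = 0.731 and 0.721). With 1 library left out, 79 to 81 were higher, with a median of 0.05 (without global KO 1) to 0.11, and 3 (without global KO 5) to 44 (without HSC KO 1) had an unadjusted p under 0.05. Under RLE and upper-quartile scaling 81 of 81 were higher. By the list's mean log2 CPM, 2 of 6 global KO libraries were above all controls and 0 below. In HSC KO 3 of 5 were above all controls and 1 below. The members are not independent, so the libraries did not shift as uniformly as the count of genes.

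Genes of long-term haematopoietic stem cells were lower in 18 of 21, with 4 at an unadjusted p under 0.05, where 47.4% of all genes were lower and 3.38% lower at that p. The median was -0.13. The 4 became 1 without HSC KO 5 or without HSC wt 1, 11 with a mast cell covariate and 0 with the level of neutrophil markers as a covariate, where 14 of 21 were lower. The median was 0.02 in the global and -0.29 in the HSC experiment, and the difference between them was not tested. Prdm16, a transcription factor of stem cell maintenance, was 14.1 to 19.7 CPM in HSC KO and 17.4 to 35.6 CPM in HSC wt, and stood at -0.32 in the common effect (edgeR adjusted p = 0.815). Esam, an adhesion molecule of stem cells, stood at -0.34 (edgeR adjusted p = 0.716).

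Of 13 STAT5 genes and feedback targets, 11 were lower with a median of -0.18 and 0 called. Socs2, a feedback inhibitor of JAK-STAT5 signalling, was 9.14 to 23.2 CPM in 5 global KO libraries but 77.1 CPM in global KO 2, against 28.1 to 84.7 CPM in Spred1 wt (common -0.73, edgeR adjusted p = 0.865). Interferon-stimulated genes were higher in 22 of 29 with a median of 0.07, and lower in 25 of 29 with a median of -0.22 without HSC KO 1. By experiment, 22 were lower in the global (median -0.08) and 26 higher in the HSC experiment (median 0.21). By the list's mean log2 CPM, 1 HSC KO library was above all HSC wt libraries and 4 were below all of them.

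A lineage-negative sort should remove mature cells. Of the marker lists for such cells, the medians lay near 0 for megakaryocytes and platelets (-0.00189), for B and T lymphoid cells (0.07) and for plasma and plasmacytoid dendritic cells (0.07, from -0.55 in the global and 1.02 in the HSC experiment), and farther from 0 for neutrophils, macrophages, erythroid cells and mast cells. Markers of mesenchymal stromal cells were higher in 6 of 7 with a median of 0.59 (global -0.18, HSC 1.36), 0 of them at an unadjusted p under 0.05. The 14 mature neutrophil markers were lower in 13, with 9 at an unadjusted p under 0.05, where 3.38% of all genes were, and 0 called. Their median was -1.43 (global -2.01, HSC -0.87). Their summed level was 119 to 301 CPM in global KO and 157 to 1025 CPM in Spred1 wt, and 215 to 749 CPM in HSC KO and 253 to 1096 CPM in HSC wt, and 0 of the 14 were at 0 in any group. The calgranulin genes S100a8 and S100a9 stood at -1.57 and -1.67, the neutrophil surface protein gene Cd177 at -1.65 and the collagenase gene Mmp8 at -0.95 (edgeR adjusted p of 0.494 to 0.631). In libraries of sorted bulk cells, fewer cells of a type and less RNA per cell cannot be told apart. With the neutrophil marker level as a covariate, an alternative added after seeing the data, the same 5 genes were called. The ERK output list then had 15 of 16 members higher with a median of 0.29, immediate early genes had 10 of 22 higher, and oxidative phosphorylation subunits higher in 47 of 76, from 73 of 76.

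Macrophage and monocyte markers were higher in 13 of 17 with a median of 0.57, which was 0.19 without global KO 1. Their summed level was 489 to 1342 CPM in global KO and 533 to 955 CPM in Spred1 wt, and 471 to 740 CPM in HSC KO and 443 to 689 CPM in HSC wt. Global KO 1 had 38.1 CPM of C1qb and 44.6 CPM of C1qc, complement genes of macrophages, where the other 5 global KO libraries had at most 7.66 and 8.36 CPM. Erythroid markers were higher in 12 of 14 with a median of 0.81, which was -0.02 without HSC KO 1. Their summed level was 529 to 620 CPM in global KO and 424 to 589 CPM in Spred1 wt, and 469 to 1026 CPM in HSC KO and 471 to 584 CPM in HSC wt. HSC KO 1 was the library with 41.1 CPM of the globin gene Hbb-b2 against at most 9.37 CPM in the other HSC KO libraries. Globin genes share reads with near-identical copies. Mast cell and basophil markers were lower in 14 of 18 with a median of -0.45, which ran from -0.74 without global KO 2 to -0.22 without Spred1 wt 3, yet the basophil protease genes Prss34 (1.03) and Mcpt8 (0.70) were higher (edgeR adjusted p = 0.721 and 0.828). The part of these cell types in the other results was not tested beyond the covariates named.

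A pair of neighbouring immune checkpoint genes, named after their values were seen, was among the 27 genes lower in both experiments at an unadjusted p under 0.05. Pdcd1lg2, which encodes PD-L2, was 6.19 to 11.924 CPM in HSC KO and 11.934 to 19.1 CPM in HSC wt, apart by a narrow gap, and 9.15 to 16.3 CPM in global KO against 14.9 to 27.0 CPM in Spred1 wt. Cd274, which encodes PD-L1 and lies 22.8 kb away on chromosome 19, was 50.9 to 71.5 CPM in HSC KO and 67.7 to 90.8 CPM in HSC wt. Its groups overlapped in both experiments, with 4 of 5 HSC KO and 4 of 6 global KO libraries below all controls. Their common log2 differences were -0.58 and -0.35 (edgeR adjusted p = 0.237 and 0.525), and DESeq2 called Pdcd1lg2 (adjusted p = 0.0275).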

How the data were processed

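RNA-seq of sorted LSK cells was analysed in 21 of 26 libraries, grouped by title and genotype. The authors deposited raw counts, whole numbers that were not normalized, for 24091 genes, of which 5297 had 0 counts in all 26 libraries. Per the submitters' processing notes, the genome build was mm10 and the tools were HTSeq 0.6.0, STAR 2.6.0, edgeR 3.28.1 and bcl2fastq 2.18.0.12. Neither annotation nor strandedness of the counts is given in the sources used here, so overlapping and near-identical genes are uncertain. In the 45 pairs of libraries within groups, counts differed by more than sampling noise (chi-square per degree of freedom 4.64 to 75.7), and 0 columns were identical.

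Levels are CPM on library sizes scaled by TMM (edgeR 4.0.16, R 4.3.3). A filter by filterByExpr with a minimum count of 10 over 4 groups left 13238 genes, tested with the quasi-likelihood F-test with robust dispersion (biological coefficient of variation 0.196), two-sided, Benjamini-Hochberg adjusted over all genes. The common effect came from a model with experiment and knockout (18 residual degrees of freedom), the effect of each experiment and their difference from 4 group means (17). A gene at 0 was given a floor of 3 counts. Sex was read from Xist and Y-linked genes. The tests were tried on simulated data with known changes.

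Named were Spred1, called genes, the 10 of smallest p in each direction, genes called for the difference, up to 4 members of smallest p of each list described, Spred2, Spred3 and Nf1. The text gives a part of these, some genes named by the rule are not reported here, and Cd274 and Pdcd1lg2 lie outside the rule. The members and lists were chosen with earlier results of these data known. Alternatives were DESeq2 1.42.0, limma voom (limma 3.58.1), other scalings and filters, all 26 libraries, equal weights, no block, sex or mast cell covariates, libraries with Y transcripts alone, a fold of 1.2 as the null, and each library left out. A neutrophil covariate was added after seeing the data. Sequences come from RefSeq and GENCODE M21. Of the table's symbols, 23509 matched GENCODE M21, 99.2% with an end within 5 kb. Figures were drawn with matplotlib.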

Additional observations from a re-analysis of the deposited data

Results flagged for a closer look

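The effect of knockout differed between the experiments, by a test of the difference itself, for Mtrr (log2 difference of effects -0.98, global minus HSC) and Fastkd3 (-1.24). The EC KO libraries, outside the comparison, were looked at for chosen genes only. Mir674 had a median of 0.214 CPM in the 5 EC KO libraries, from 4 to 6 reads each. Of these libraries 5 of 5 were above the highest of the 10 wild-type libraries (0.142 CPM), where libraries had 0 to 3 reads. The share of all genes with 5 of 5 EC KO libraries above all wild-type libraries is not given here. Spred1 in the same EC KO libraries was 58.0 to 84.0 CPM, below all 10 wild-type libraries. Of the other called genes, Ccnd1 was 48.9 to 86.0 CPM there, with 3 of 5 libraries above all 10 wild-type libraries, DQ267101 was 0.632 to 1.56 CPM, with 1 of 5 below them, and BC018473 had 0 reads.

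Single libraries stood far from the rest of their group in 18 of 214 gene and group pairs looked at. The cutoff flags about 1 in 20 for normally distributed values. Low counts are not such values (St6galnac2 had 1 or 2 reads per HSC KO library), and genes that move together count as separate pairs. The share flagged is therefore not a test. In global KO these were BC018473 at 0 CPM and Socs2 at 77.1 CPM in library 2, and C1qb at 38.1 CPM and C1qc at 44.6 CPM in library 1. In Spred1 wt they were G0s2 at 4.47 CPM in library 4, Fastkd3 at 22.7 CPM in library 2, and C1qb at 11.8 CPM and C1qc at 13.8 CPM in library 1. In HSC KO they were Hbb-b2 at 41.1 CPM, Spry2 at 25.2 CPM and Pdcd1lg2 at 6.19 CPM in library 1, Btnl9 at 5.37 CPM in library 2, and St6galnac2 at 0.128 CPM and Spred2 at 55.0 CPM in library 4. In HSC wt they were Arhgef28 at 23.8 CPM and Dlk1 at 3.99 CPM in library 1, Spred2 at 49.7 CPM in library 2 and G0s2 at 2.06 CPM in library 4.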

How the results depend on the processing

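Genes called for the common effect numbered 5, and 31 in DESeq2 (8 higher, 23 lower), 10 in limma voom, 19 with a mast cell covariate, 3 without the experiment block, 3 with Y-transcript libraries alone, 3 without genes within 20 Mb of Spred1, and 3 to 7 with 1 library left out (3 without global KO 4). Of the 31 in DESeq2, 4 were among the 5. Genes called for the difference numbered 2, and 8 in DESeq2 and 2 to 6 with 1 library left out (4 without global KO 2, 6 without Spred1 wt 1). Genes apart in both experiments numbered 4, and 2 without genes within 20 Mb of Spred1 and 3 to 7 with 1 library left out (7 without Spred1 wt 3). Spred1 was called throughout, at -1.76 to -1.63 with 1 library left out. Spred3 turned to 0.0535 in limma voom, 0.0261 with a sex covariate, 0.0148 with a neutrophil covariate, and ran from -0.0777 to 0.0479 with 1 library left out, above 0 without HSC wt 1 and without HSC wt 2 (0.0288). S100a8 and S100a9 turned to 0.0548 and 0.104 with the neutrophil covariate, which contains them. For other changes the cause was not tested. Depth limits Mir674 and DQ267101, with 25 reads or fewer per knockout library. No paired analysis was possible because the labels give the groups no shared replicate numbers.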
